A study of Mus musculus with 3 samples.

Results

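In the mouse liver, 211 genomic sites were called as binding sites of both CLK and BMAL1, out of 2127 peaks called for either factor. CLK (CLOCK) and BMAL1 (Arntl) are the transcription factors whose heterodimer drives the circadian clock. The 211 sites are the peaks that the authors classed as CLK:BMAL1. Each one is a CLK peak, at the position of the CLK peak, that overlaps a BMAL1 peak by 1 bp or more, and the other peaks are 1368 BMAL1 only and 548 CLK only peaks. Chromatin came from the livers of adult C57BL/6 mice aged 3 to 6 months under a cycle of 12 h light and 12 h dark, sampled at ZT8 (8 h after lights on). Per the study's methods the animals were males, and the CLK, BMAL1 and Input libraries came from the same liver extract. There was 1 library per antibody and 1 Input library (chromatin with no antibody), so no value below has a replicate and no test was made. The CLK library held 33057959 tags after removal of duplicates, the BMAL1 library 25217144 and the Input library 18206506. Intervals are exact 95% intervals for shares and tag ratios, and binomial order-statistic intervals for medians. Those of tag ratios cover only the counting of tags, and those of shares and medians only the number of sites. None covers the spread between libraries, as each antibody had 1. PCR copies of a molecule are not independent, which the intervals do not allow for.

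The CLK:BMAL1 heterodimer binds the e-box, the palindrome CACGTG, and activates the transcription of genes that carry it. Among its known targets are the Period and Cryptochrome genes, whose proteins feed back to repress the heterodimer, and the genes for REV-ERBα, REV-ERBβ and the PAR bZIP factors, which pass the rhythm on to further genes. In the liver the clock is known to time the metabolism of glucose, lipids, amino acids, heme and foreign compounds.

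A peak was called where its MACS p-value was at most 1e-05, and the score quoted below is 10 times the negative log10 of that p-value, so no site falls below a score of 50 for either factor. The 211 sites were thus selected on both peak calls and on their overlap. Tags, scores and their ratio are therefore described, while sequence and position were not used to choose the sites. The sites of smallest overlap were those at Gnb1 (188 bp), 9430083A17Rik (240 bp), Adh5 (241 bp), Zc3h8 (265 bp) and Slco1a4 (271 bp). None of them was near the limit of 1 bp. Small overlap went with narrow CLK peaks, such as those of Gnb1 (190 bp wide) and Zc3h8 (265 bp wide). The CLK only peaks nearest to a BMAL1 peak were assigned to N4bp1 (89 bp from a BMAL1 peak), Slc5a6 (203 bp), Alas1 (289 bp), Alb (290 bp) and Pck1 (332 bp). Alas1, Alb and Pck1 were thus assigned a CLK only peak as well as a shared site.

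The e-boxes of 16 sites outside the core clock genes are printed here because they carry the sequence that most shared sites have in common. They are those of strong sites and of sites at genes of liver metabolism and protein synthesis. Each line is 30 bases of the mm9 (NCBIM37) plus strand, 5′ to 3′, around the e-box nearest to the CLK summit, and capitals mark each copy of CACGTG.
AK036974, beside Katnal1 (chr5:149806800-149806829): acgtgacctggaCACGTGacttggagccgg
Phf17 (chr3:41368550-41368579): aaccttcccgtgCACGTGtctggtgcctgt
AK042445, beside Bhlhe40 (chr6:108609425-108609454): ccgcgtccgggcCACGTGaagcgtcacgcc
Nup50 (chr15:84753384-84753413): ccaaggcccgtcCACGTGagaatcacgttg
Coq10b (chr1:55109524-55109553): ggcggcactggaCACGTGcgtcagcctagc
Rnf145 (chr11:44332146-44332175): ttcacattgtccCACGTGgtcccagcaggt
Pfkfb3 (chr2:11457160-11457189): agcacagacgggCACGTGaactcagcgtgc
Gys2, site nearer the start (chr6:142419816-142419845): atgCACGTGgcaCACGTGtgggtacatgtt
Gys2, site farther from it (chr6:142400205-142400234): agaaaacaccgtCACGTGgatcttaaacct
Slc2a5 (chr4:149506853-149506882): agggcatggtgaCACGTGtgcatcacacat
Ppp1r3c (chr19:36806039-36806068): gagacctgaggtCACGTGccgcggtcacgt
Dgat2 (chr7:106331543-106331572): agggagtttgagCACGTGcgggacgatccg
Odc1 (chr12:17552032-17552061): gccggcaggggaCACGTGgcccgggaccgg
Adc (chr4:128624100-128624129): cagtggtgtgggCACGTGagctccgagtca
Eef2k (chr7:127986302-127986331): cccggggacggcCACGTGagcccgggcgtg
Por (chr5:136150837-136150866): acgtttgtggtcCACGTGctgttaggccaa

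Tags were counted by MACS inside each peak, and the BMAL1 to CLK ratio divides each count by its library's tags after removal of duplicates, which multiplies the raw ratio by 1.31. A shared site held a median of 39 CLK tags (range 18 to 477) and 43 BMAL1 tags (16 to 382). The median ratio was 1.55 (1.46 to 1.69, n = 211 sites), and the middle of the distribution, between the quartiles, ran from 1.22 to 2.00. BMAL1 had more tags per depth than CLK at 185 sites (87.7%), and the interval of the ratio lay wholly above 1 at 97 sites (46.0%) and wholly below 1 at 5 sites. The ratio was above 2 at 53 sites. Across the 211 sites the log2 tags of both factors had a Pearson r of 0.78 and a Spearman rho of 0.73, as a description over sites that share the same Input library and chromatin.

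**Figure D1:**
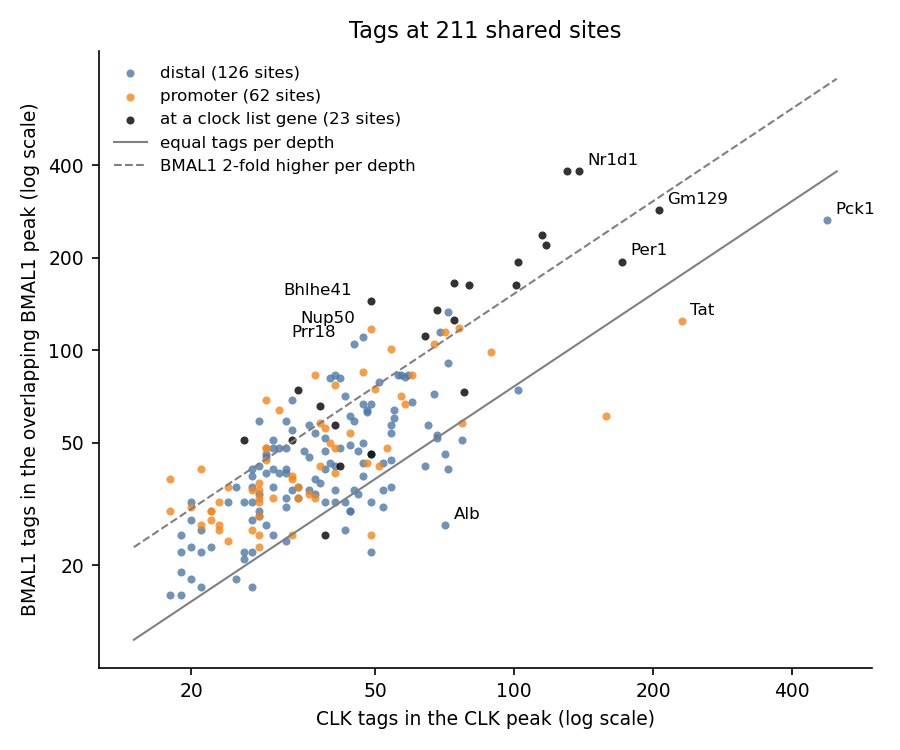
CLK tags (horizontal axis) against BMAL1 tags (vertical axis) at the 211 shared sites, both on log scales, with 1 point per site; the solid line marks equal tags per depth and the dashed line a BMAL1 level 2-fold higher. Most points lie above the solid line, sites at clock list genes lie mostly above the dashed line, and the labelled sites of Tat, Alb and Pck1 lie below the solid line.

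Tags were counted over peaks of unequal width. The median BMAL1 peak was 608 bp wide and the median CLK peak 500 bp, and the BMAL1 peak was the wider one at 169 of 211 sites (80.1%). Across sites the log2 ratio had a Pearson r of 0.74 with the log2 ratio of the widths, where both quantities share the same peak calls. On the log2 scale the median ratio was 0.64 from tags, 0.29 from tags per kb of peak and 0.48 from the MACS fold enrichments over the local Input.

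The core clock genes and their direct relatives accounted for 23 of the 211 sites, at 13 of the 27 genes of the clock list. Their median tag ratio was 2.28 (1.82 to 2.67), and 16 of the 23 sites were above 2. The 16 include the Nr1d1 sites that share a BMAL1 peak, whose ratio was 1.87 with their CLK tags summed. Over the other 188 sites the median tag ratio was 1.52 (1.41 to 1.63). The same order was seen with tags per kb, where the log2 medians were 0.68 (0.35 to 0.85) and 0.25 (0.20 to 0.31), and with fold enrichments, where they were 1.02 (0.76 to 1.29) and 0.43 (0.37 to 0.49). These scales share the BMAL1 and CLK peak calls and are not independent of each other. Clock list sites also held more tags, with medians of 74 CLK and 135 BMAL1 tags against 37 and 41 at the other sites. Over all 211 sites the log2 ratio had a Pearson r of 0.54 with log2 BMAL1 tags and -0.11 with log2 CLK tags. Both counts enter the ratio. The part of peak strength in the higher ratio of clock list sites was not tested.

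Several clock genes held more than 1 shared site. Nr1d1, which encodes REV-ERBα, held 4 sites, the largest run of shared sites with gaps of at most 20 kb. A BMAL1 peak of 382 tags, the highest BMAL1 count of any site, covered the Nr1d1 promoter and an intronic site, where CLK had separate peaks of 130 and 138 tags. Set against the sum of both CLK peaks, its ratio was 1.87 (1.59 to 2.19), while against each one alone it was 3.85 and 3.63. The Nr1d1 site 8215 bp upstream held 115 CLK and 237 BMAL1 tags. Dbp, a PAR bZIP factor, held 3 sites, of which those 284 and 784 bp from the start held 101 and 74 CLK tags and 163 and 125 BMAL1 tags. The Dbp site with the most tags of each factor was inside the gene, 2652 bp from the start, with 117 CLK and 220 BMAL1 tags. All 3 Dbp sites thus had ratios between 2.12 and 2.47.

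Bhlhe41 (DEC2), a basic helix-loop-helix repressor, also held 3 sites. The Bhlhe41 site 1026 bp from the start had 49 CLK and 144 BMAL1 tags and a ratio of 3.85 (2.77 to 5.44), whereas the site 9454 bp away had 42 tags of each factor and a ratio of 1.31 (0.83 to 2.06). Per1 held 171 CLK and 194 BMAL1 tags at its promoter and 78 and 73 tags inside the gene, with ratios of 1.49 and 1.23. Its CLK score of 701 was the highest of the shared sites, so Per1 was a strong CLK site with a ratio below that of most clock genes. Per2 (74 CLK and 165 BMAL1 tags), Cry1 (34 and 74) and Nr1d2, which encodes REV-ERBβ (80 and 163), had ratios of 2.92, 2.85 and 2.67. Gm129 (Ciart), a repressor of the heterodimer, held 206 CLK and 286 BMAL1 tags and a ratio of 1.82 (1.52 to 2.19). Wee1, a cell cycle kinase, was the only clock list gene with a site below 1, with 39 CLK and 25 BMAL1 tags and a ratio of 0.84 (0.49 to 1.42), an interval that includes 1.

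Shared sites were assigned to 194 genes, counted by symbol, and 12 genes held more than 1. Of these 12, Nr1d1, Dbp, Bhlhe41, Per1 and Tef are clock list genes, and Alb (3 sites), Etnk2, Eif4g1, Pck1, Adh5, Gys2 and AK036974 (2 sites each) are not. Cry2 also held 2 sites where the symbol mPHLL2 is counted as Cry2, as in the clock list. Every gene with a shared site was put by hand into a role group from what it is known to do, and genes with no sure role were left together. The groups outside the clock were drawn with the sites known, so their sizes are a description.

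**Figure D2:**
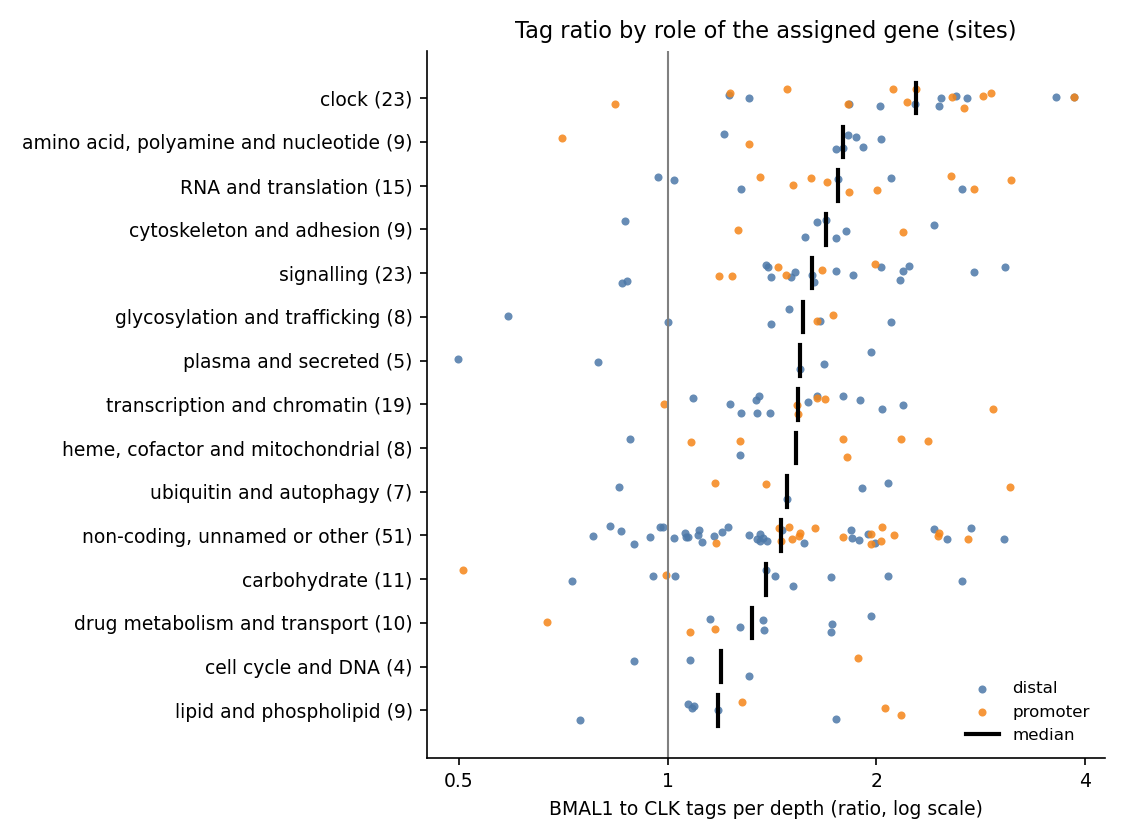
BMAL1 to CLK tag ratio per depth (horizontal axis, log scale) of each shared site, by role group of the assigned gene with the number of sites in brackets; points are sites, in orange at promoters and in blue elsewhere, and black bars are medians. The clock group has the highest median, 2.28, and the lipid group the lowest, 1.18, and the groups overlap widely.

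Genes of carbohydrate metabolism held 11 shared sites at 9 genes. Of these sites, 2 were at promoters and 7 had an e-box, counted for each shared site within 100 bp of the CLK summit. The median ratio was 1.38 (0.73 to 2.08). Glycogen genes were represented on several sides. Gys2, the liver glycogen synthase, held an intronic site with 48 CLK and 63 BMAL1 tags, 1616 bp from the start, and a farther one with 41 and 32 tags. Both Gys2 sites had 2 e-boxes, and their ratios were 1.72 (1.16 to 2.56) and 1.02 (0.62 to 1.67). Ppp1r3c, a subunit that brings protein phosphatase to glycogen, held 36 CLK and 57 BMAL1 tags 5051 bp from its start, with a ratio of 2.08 (1.34 to 3.24). Gbe1, the glycogen branching enzyme, held 19 and 22 tags in an intron. Synthesis, branching and targeting of the phosphatase were thus each touched by a site with an e-box.

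Sugar handling genes also held distal sites. Pfkfb3, which makes the activator of phosphofructokinase, held 55 CLK and 60 BMAL1 tags 33535 bp from its start. Slc2a5, the fructose transporter GLUT5, held 54 and 57 tags 13462 bp into the gene. The ratios of Pfkfb3 (1.43, 0.98 to 2.10) and Slc2a5 (1.38, 0.94 to 2.05) were close to each other, and both sites had 2 e-boxes. Pck1, the rate-limiting enzyme of gluconeogenesis, was different. Its gene body site of 3505 bp held the most CLK tags of any site, 477, against 265 BMAL1 tags, and its downstream site held 102 and 74. Neither Pck1 site had an e-box within 100 bp of its CLK summit, but a CACGTG lay 5.5 bp from the BMAL1 summit of the downstream site. The Pck1 ratios were 0.73 (0.62 to 0.85) and 0.95 (0.70 to 1.30).

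Genes of lipid metabolism held 9 sites at 8 genes, with a median ratio of 1.18 (1.07 to 2.05). Slc27a2, a fatty acid transporter and very long chain acyl-CoA synthetase, had the highest BMAL1 score of the group. It held 67 CLK and 105 BMAL1 tags 67 bp from its start, and had no e-box. Dgat2, which makes triglycerides, held 41 and 40 tags at its promoter, with an e-box. Phospholipid synthesis was represented by Chka (choline kinase, 72 CLK and 41 BMAL1 tags), Etnk2 (ethanolamine kinase, 54 and 44 tags upstream and 52 and 43 inside the gene) and Lpcat3 (a lysophospholipid acyltransferase, 27 and 36 tags). Of these, Chka and both Etnk2 sites had ratios between 0.75 and 1.08, and Lpcat3 1.75. Osbpl2, an oxysterol binding protein, held 29 and 48 tags at its promoter.

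Genes of amino acid, polyamine and nucleotide metabolism held 9 sites with a median ratio of 1.79 (1.20 to 1.91). Polyamine synthesis was touched at 3 genes. Odc1, ornithine decarboxylase, held 24 tags of each factor at its promoter, with 2 e-boxes. Adc (Azin2), an antizyme inhibitor, held 44 CLK and 61 BMAL1 tags in an intron, also with 2 e-boxes. Agmat, agmatinase, held 37 and 54 tags without an e-box. Upp2, the liver uridine phosphorylase, held the site of highest BMAL1 score in this group, 384, with 47 CLK and 67 BMAL1 tags. It was assigned at 187638 bp from the start of the listed transcript, but lay 71 bp from an annotated GENCODE M1 start. Bcat2 (branched-chain aminotransferase, 30 and 41 tags), Ahcy (adenosylhomocysteinase, 31 and 48) and Aspg (asparaginase, 37 and 34) had ratios of 1.79, 2.03 and 1.20. Tat, tyrosine aminotransferase, stood apart with 231 CLK and 124 BMAL1 tags and a ratio of 0.70 (0.56 to 0.88).

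Heme, cofactor and mitochondrial genes held 8 sites, of which 6 were at promoters. Heme synthesis was represented at its entry and its exit. Alas1, the rate-limiting enzyme, held 52 CLK and 35 BMAL1 tags, and Fech, which inserts the iron, held 22 and 30. Slc25a39, a mitochondrial carrier, held 34 and 33 tags with an e-box, and Hebp1, a heme binding protein, 51 and 42. The ratios ran from 0.88 (0.56 to 1.38) for Alas1 to 1.79 (0.997 to 3.25) for Fech, and of these 4 sites only that of Slc25a39 had an e-box. Coq10b, which acts with coenzyme Q, held the site of highest BMAL1 score in the group, with 60 and 83 tags. Pdxk, pyridoxal kinase, held 29 and 48 tags, and Ndufa6, a subunit of complex I, 47 and 85.

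Genes of drug metabolism and transport held 10 sites with a median ratio of 1.32 (1.08 to 1.72). Por, the electron donor of all microsomal cytochromes P450, held 65 CLK and 57 BMAL1 tags and a ratio of 1.15 (0.79 to 1.67). The Por site was assigned at 14187 bp from the listed start and lay 413 bp from another annotated start. Inmt, an N-methyltransferase, held 45 and 59 tags, and Cyp2u1, a cytochrome P450, held 32 and 31, each with an e-box. Abcc2 (MRP2), which exports conjugates into bile, held 28 and 23 tags 64 bp from its start without an e-box, and Slco1a4, an uptake transporter, 21 and 22 tags. Adh5, the class III alcohol dehydrogenase, held 2 sites with ratios on either side of 1, from 49 CLK and 25 BMAL1 tags at the promoter and from 19 and 25 inside the gene. The intervals of both Adh5 ratios, 0.67 (0.40 to 1.10) and 1.72 (0.91 to 3.31), include 1 and overlap.

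Transcription and chromatin genes held 19 sites at 19 genes, with a median ratio of 1.54 (1.34 to 1.79), and 6 were at promoters. Phf17 (Jade1), a subunit of a histone acetyltransferase complex, had the highest BMAL1 score of the group. It held 69 CLK tags over 2 BMAL1 peaks that together held 160 tags. Hdac11, a histone deacetylase, had 37 CLK and 83 BMAL1 tags at its promoter and the highest ratio of the group, 2.94 (1.97 to 4.46). Hnf4a, a nuclear receptor that defines hepatocytes, held 32 and 40 tags 33935 bp into the gene. Klf15, a factor of gluconeogenic and amino acid genes, held 77 and 58 tags, and Foxo3, a forkhead factor restrained by insulin, 47 and 39. The ratios of Klf15 (0.99) and Foxo3 (1.09) were the lowest of the group, and both sites had an e-box. Junb (40 and 50 tags), Klf13 (46 and 47), Maf (32 and 33), Zeb1 (27 and 39), Bcl3 (28 and 34) and Tsc22d3 (28 and 30), all regulators of transcription, held sites with BMAL1 scores from 89.6 (Maf) to 190 (Junb). The Tsc22d3 site was the only shared site on the X chromosome.

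RNA and translation genes held 15 sites at 14 genes, and 9 of the 15 were at promoters. The median ratio was 1.76 (1.36 to 2.56). Nup50, a nucleoporin, held 49 CLK and 117 BMAL1 tags, 2 e-boxes and a ratio of 3.13 (2.22 to 4.46). Control of translation was represented by the initiation scaffold Eif4g1 (23 and 32 tags at the promoter, 45 and 35 in the gene), the elongation factor kinase Eef2k (38 and 58) and the eIF4E kinase Mnk2 (58 and 67). The ribosomal S6 kinase Rps6ka1, put with the signalling genes, held 47 and 110 tags 30011 bp from its start. Over the 5 sites of the translation control list the pooled ratio was 1.88 (1.57 to 2.25). RNA decay and ribosome synthesis were represented by Lsm1 (28 and 29 tags), Pan3 (36 and 35), Dis3l2 (35 and 47), Nop2 (27 and 35) and Rpp38 (21 and 41), of which 4 had an e-box and Lsm1 had none.

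Signalling genes formed the largest named group beside the clock, with 23 sites at 23 genes, and 6 were at promoters. Calcium release was represented by 2 inositol trisphosphate receptors, Itpr2 (51 CLK and 79 BMAL1 tags) and Itpr1 (34 and 36). The Wnt receptor Fzd5 held 33 and 55 tags and its transducer Dvl2 held 53 and 48 with 3 e-boxes. Vegfa, the angiogenic growth factor, held 47 and 50 tags 19773 bp from its start. The stress kinase jnk1 (Mapk8) held 29 and 44 tags and the kinase Pim3 67 and 72. Ratios in the group ran from 0.86 at Rasa4 to 3.07 at Rps6ka1.

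Ubiquitin and autophagy genes held 7 sites and glycosylation and trafficking genes 8, and all 15 had an e-box, against 59.2% of all 211 shared sites. Nothing is read from this count, since the groups were drawn with the sites known. The genes included the ubiquitin ligase Rnf145 (29 CLK and 69 BMAL1 tags), the deubiquitinases Usp36 (60 and 68) and Usp28 (34 and 36), and Atg3 (37 and 33), which lipidates the autophagy protein LC3. The glycosyltransferases B4galt1, Galnt2 and St3gal5 held 42 and 48, 72 and 91, and 40 and 43 tags. The proprotein convertase Furin held 30 and 48 tags 40982 bp from its start. Cytoskeleton and adhesion genes held 9 sites, with the highest BMAL1 score at Mtss1 (72 and 133 tags). Cell cycle and DNA genes held 4 sites, at Ccne1 (cyclin E1), Ccno, the replication factor Mcm10 and Fanca.

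The share of listed genes with a shared site was counted among genes that had any peak in the table. Over all genes with a peak, 10.3% (194 of 1886) had a shared site. The counts for the lists were 13 of 18 for the clock, 4 of 5 for heme, 7 of 12 for glycogen and glucose, 7 of 11 for lipid, 7 of 13 for amino acid and polyamine, 6 of 6 for drug metabolism and transport, 10 of 15 for transcription regulators, 4 of 7 for translation control and 3 of 8 for highly transcribed liver genes. The lists were written with the genes of the shared sites in view, so these counts cannot be read against the 10.3%. Some listed genes had other peaks only. Of the glycogen and glucose list, Pygl and G6pc had CLK only peaks and Pcx, Pfkl and Slc2a2 had BMAL1 only peaks, and of the clock list Bhlhe40, Nfil3, Rorb and Usp2 had BMAL1 only peaks and Rora had a BMAL1 only and a CLK only peak. Many listed genes had no peak in the table, among them 19 of the 31 glycogen and glucose genes and 12 of the 17 heme genes.

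The symbol in the table hid the neighbour at some sites. Of 43 sites assigned to a transcript identifier, an unnamed gene, or a provisional or older symbol, 17 lay within 1000 bp of a protein-coding start of GENCODE M1. The site of AK036974 lay 158 bp from the start of Katnal1 and had the highest BMAL1 score outside the clock list, 594. By CLK score, where it had 240, other sites such as that of Pck1 (666) were higher. The site of AK042445 (54 CLK and 101 BMAL1 tags) lay 1179 bp from the start of Bhlhe40 (DEC1). That of AK080292 lay 111 bp from Ccne2 (cyclin E2), that of Snord82 673 bp from Ncl (nucleolin), and that of mPHLL2 177 bp from Cry2. Counted by nearest start, Bhlhe40 would thus join the genes with a shared site. The other sites of highest BMAL1 score outside the clock list were at Prr18 (504), Mtss1 (491), Phf17 (487), Nup50 (399), Upp2 (384), Coq10b (334), Kbtbd8 (328), 1810013L24Rik (316), Slc27a2 (305), Nav2 (304), Hdac11 (303), Rps6ka1 (290) and Rnf145 (289).

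The lowest ratios were of several kinds of gene. The 5 sites whose interval lay below 1 included those at Alb (albumin, 71 CLK and 27 BMAL1 tags, ratio 0.50), Ergic1 (49 and 22 tags, 0.59), Tat (0.70) and Pck1 (0.73). Other sites among the 8 lowest were at Adh5, Chka and AU019990 (0.78). A list of 36 genes known as highly transcribed in liver, chosen by hand with no transcription level measured here, had 3 genes with a shared site, 5 with other peaks only and 28 with no peak. Of this list, Alb and Tat held 4 shared sites between them, and 3 of these 4 were below 1, while Ergic1 and Pck1 are not on it. The third Alb site, 13646 bp into the gene, went the other way with 32 CLK and 48 BMAL1 tags and a ratio of 1.97 (1.23 to 3.18).

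Peak width moved with these values. At Tat, where the CLK and BMAL1 peaks were 1942 and 1897 bp wide, the log2 ratio was -0.47 per kb of peak against -0.51 from tags. At the Alb site of lowest ratio, where the widths were 948 and 565 bp, the log2 values were -0.26 per kb, -1.004 from tags and -0.02 from fold enrichments. None of the 4 sites at Alb and Tat had an e-box. The part of peak width, of transcription and of the antibodies in these ratios was not tested.

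The highest ratio was that of Bhlhe41 given above. The pair of Nr1d1 sites ranked next only where their common BMAL1 peak was set against each CLK peak alone, and not with both CLK peaks summed (1.87). They were followed by Nup50 (3.13), Rnf145 (3.12), Rps6ka1 (3.07), Prr18 (3.06) and Hdac11 (2.94). Phf17 would stand between Prr18 and Hdac11 with its 2 BMAL1 peaks summed, at 3.04 (2.28 to 4.09), against 2.18 with the stronger peak alone. Rnf145 had 29 CLK tags and a CLK score of 58.6, near the calling cutoff, and Rps6ka1 47 tags and a score of 57.2. Prr18 held 45 CLK and 105 BMAL1 tags 8709 bp from its start, without an e-box. Sites of high ratio outside the clock therefore included some at which the CLK peak only just passed. Over all 211 sites the CLK score reached 100 at 68 sites and the BMAL1 score at 131, and both did at 59. MACS gave an FDR of at most 5% to the BMAL1 peak of 192 sites and to the CLK peak of 70.

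Promoter sites, within 1000 bp of the assigned start, numbered 74 of 211 (35.1%, 28.6 to 41.9). Over all 2127 peaks of the table the share was 16.5%, which includes the shared sites. A further 74 sites lay inside the assigned gene (35.1%, against 37.0% of all peaks), 22 between genes within 10 kb of the start and 41 (19.4%) farther away, against 38.3% of all peaks. At promoters, 54 of 74 peak centres (73.0%) were upstream of the start. A BMAL1 score of at least 100 was also applied, a limit chosen after the values were seen. At that limit 47 shared sites were at promoters and 84 were distal, against 49 and 54 BMAL1 only peaks. The higher promoter share of shared sites was thus not seen against strong BMAL1 only peaks. The 11 sites beyond 100 kb of the assigned start included those of Maf (276708 bp), Zeb1 (224904 bp), Rere (301751 bp) and Itpr2 (230643 bp). Those of Rere and Itpr2 lay inside their genes, 13996 and 22996 bp from the nearest GENCODE M1 start. For Maf and Zeb1 that start was 275871 and 204567 bp away. Position depends on the start chosen. With the nearest start of any GENCODE M1 transcript, 97 sites (46.0%) were promoter sites, since 25 of the 137 distal sites lay within 1000 bp of a start that the table did not list. By GENCODE M1, 86 of the 211 CLK summits were in introns, 95 between genes, 25 in non-coding exons or untranslated regions and 5 in coding exons, at Fbxl22, Hmgn2, Pck1 and Alb (2 sites).

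Promoter and distal sites overlapped widely in ratio. The median was 1.68 (1.53 to 1.88) at promoters and 1.49 (1.37 to 1.64) at distal sites, with overlapping intervals. On the log2 scale the difference of medians was 0.17, with a range of -0.09 to 0.46 set by both intervals, and it was 0.06 with tags per kb. The ratio was above 2 at 25 of 74 promoter sites (33.8%) and 28 of 137 distal sites (20.4%), and below 1 at 6 and 20 sites. Without the sites of the clock list the difference was 0.22 (-0.09 to 0.42).

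The e-box CACGTG lay within 100 bp of the CLK summit at 125 of 211 sites (59.2%, 52.3 to 65.9). It lay in flanks of the same length, 400 to 500 bp from the summit on both sides, at 8.53% of sites, at 22.7% of all peaks of the table, which include the shared sites, and at 5.22% of protein-coding starts of GENCODE M1. Promoter and distal shared sites had overlapping intervals, with 47 of 74 (63.5%, 51.5 to 74.4) and 78 of 137 (56.9%, 48.2 to 65.4), whereas BMAL1 only peaks had an e-box at 118 of 223 promoter peaks (52.9%) and at 183 of 1145 distal peaks (interval 13.9 to 18.2%). Where the BMAL1 score was at least 100, a limit chosen after the values were seen, distal BMAL1 only peaks had one at 34 of 54 (63.0%, 48.7 to 75.7) and distal shared sites at 48 of 84 (57.1%, 45.9 to 67.9). The gap between distal shared and distal BMAL1 only peaks was thus not seen among strong peaks. Of CLK only peaks with a CLK score of at least 100, an e-box was found at 0 of 7 promoter peaks (exact upper limit 41.0%) and at 1 of 19 distal peaks (5.26%, 0.13 to 26.0).

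**Figure D3:**
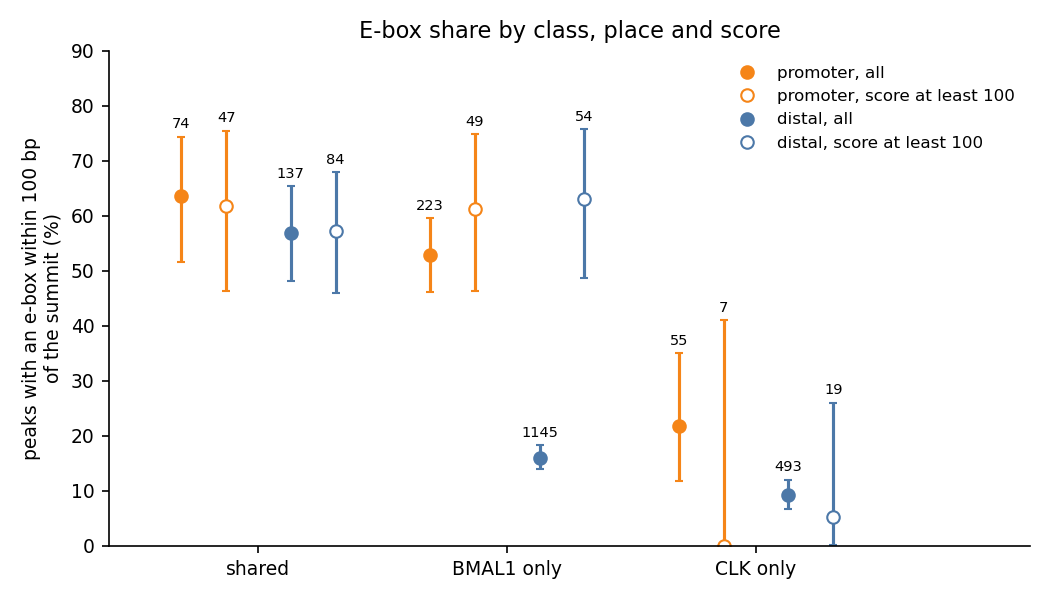
Share of peaks with CACGTG within 100 bp of the summit (vertical axis, percent) for shared, BMAL1 only and CLK only peaks; filled points are all peaks, open points those with a score of at least 100 (the BMAL1 score for shared and BMAL1 only peaks, the CLK score for CLK only), orange promoter and blue distal, bars are exact 95% intervals and numbers above them count peaks. Shared sites lie between 56.9% and 63.5%, and distal BMAL1 only peaks move from 183 of 1145 to 34 of 54 (63.0%) with the score limit.

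E-boxes sat at the summit. Where a site had an e-box within 100 bp, the nearest one was a median of 19.5 bp from the CLK summit, and within 25 bp of it at 82 of 125 sites (65.6%). From the BMAL1 summit the median was 18.5 bp. Of 248 e-boxes within 500 bp of a CLK summit, 137 (55.2%) were within 50 bp. More than 1 e-box was found at 41 sites (32.8% of those with any), with 5 at the Mfsd1 promoter and 3 at sites that included Nr1d2, Snord82, Dvl2, Ino80 and Amdhd2. The median tag ratio was 1.51 (1.40 to 1.66) at sites with an e-box and 1.64 (1.46 to 1.87) at sites without, and the intervals overlap.

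**Figure D4:**
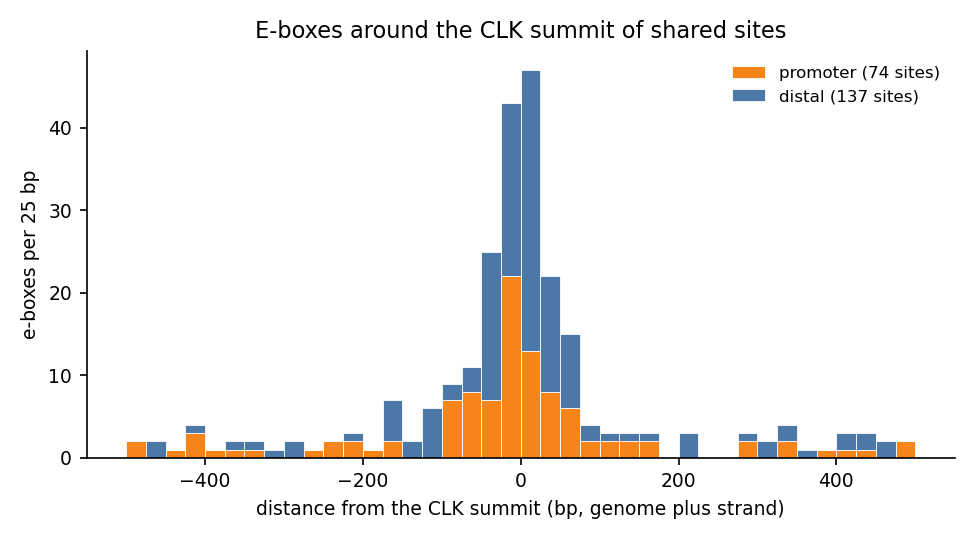
Number of e-boxes per 25 bp (vertical axis) by distance from the CLK summit (horizontal axis, bp), over 74 promoter sites (orange) and 137 distal sites (blue), stacked. The highest bar holds 47 e-boxes and bars 300 to 500 bp from the summit hold at most 4.

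At the 86 sites without CACGTG, hexamers that differ from it by 1 base were common. CACATG was found at 40 of them (46.5%) against 9.30% in the flanks and 23.6% of all peaks. CACCTG came next, at 31.4% against 13.95% in the flanks and 21.8% of all peaks. CACGCG was found at 24.4% against 3.49% in the flanks, CACGGG at 22.1% against 4.65%, CACGAG at 20.9% against 3.49%, and CACGTT at 19.8% against 2.33%. Over all peaks these 4 hexamers were at 7.80%, 8.74%, 6.82% and 7.43%. The other 3 such hexamers were at 16.3% or less. These letters are counted on both strands and a site can hold several of them. Among the sites without CACGTG were those of Per2, Per3, Dbp (2 of its 3 sites), Wee1, Slc27a2, Hnf4a and Alas1.

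Other motifs were also counted within 100 bp of the CLK summit on both strands. Of these, GGGCGG and AGGTCA differed most between promoter and distal sites. GGGCGG, the GC box bound by SP1, was found at 66.2% of promoter sites (33.8% in their flanks, 38.6% of all protein-coding starts) and 17.5% of distal sites (7.30%). Promoter sites were also richer in G and C, with a median of 66.4% of bases against 54.7% at distal sites. AGGTCA, the core hexamer of nuclear receptor elements, was found at 39 of 137 distal sites (28.5%, 21.1 to 36.8) against 8.76% of their flanks, and at 12.2% of promoter sites against 14.9%. It was found at 15.9% of all peaks and 8.92% of all protein-coding starts. The distal sites with AGGTCA included Gys2, Pck1, Slc2a5, Ppp1r3c, Gbe1, Upp2, Bcat2 and Agmat, and 22 of the 39 also had an e-box.

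TTATGTAA, a D-box, which the PAR bZIP factors DBP, TEF and HLF bind, was found at 14 sites (6.64%, 3.67 to 10.9), against 0.474% in the flanks, 1.88% of all peaks and 0.404% of protein-coding starts. The 14 sites included Per2, Per3, Nr1d2 and Tef among the clock genes and Coq10b, Itpr2, Vegfa, Slc25a33, Cpeb3 and Rgs8 outside them, and 7 of the 14 also had an e-box. The Per2 promoter site had the D-box 5.5 bp from its CLK summit and no e-box. The forkhead motif TGTTTAC was found at 9 sites (4.27%, 1.97 to 7.94). Its shares of 2.84% in the flanks and 3.24% of all peaks lay within that interval. Its share of protein-coding starts, 1.66%, lay below the interval. TTACGTAA, another D-box, was found at 1 site, that of Vegfa. TTATGTAA was at 8.11% (3.03 to 16.8) of promoter and 5.84% (2.55 to 11.2) of distal sites. TGTTTAC was at 5.41% (1.49 to 13.3) and 3.65% (1.20 to 8.31), so the intervals overlapped for both motifs.

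**Figure D5:**
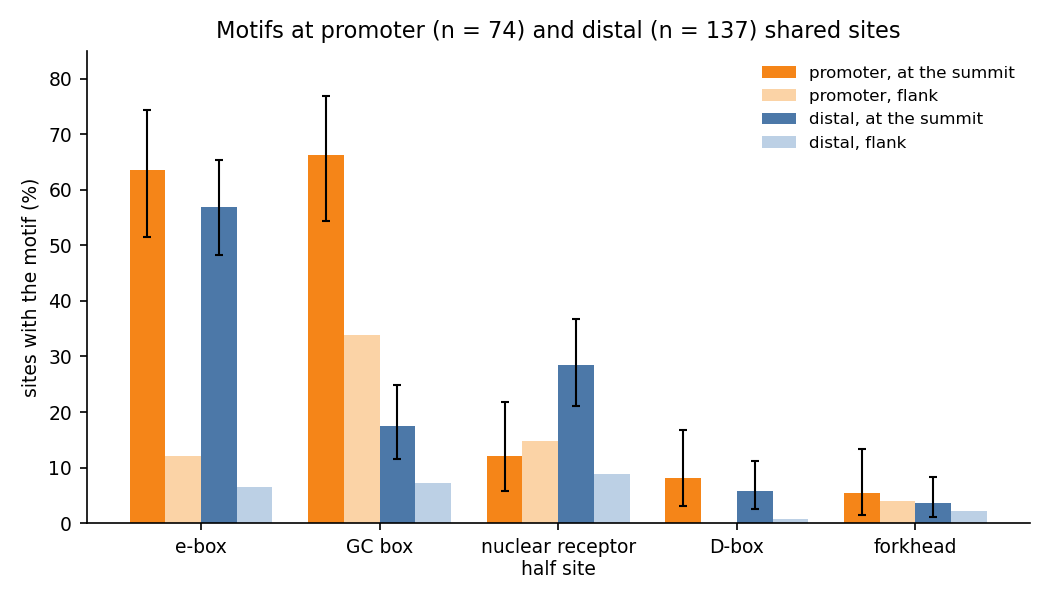
Share of promoter (orange) and distal (blue) shared sites with each motif within 100 bp of the CLK summit (vertical axis, percent), with the share in flanks 400 to 500 bp away in pale colours; bars on the summit values are exact 95% intervals, and the D-box is TTATGTAA. The e-box is at 63.5% and 56.9%, the GC box at 66.2% and 17.5%, and the AGGTCA hexamer at 12.2% and 28.5% of promoter and distal sites.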

How the data were processed

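Reads (36 nt) were mapped by the authors to the mouse genome mm9 with bowtie, and uniquely mapped reads were kept. CASAVA 1.6 is named in the submitters' processing notes. Peak calling by the authors used MACS, with each ChIP library set against the single Input library, with a p-value cutoff of 1e-05 and an effective genome size of 1890000000 bp per the file headers. Per the deposited lists, each peak has a count of tags that is not normalized, a score (10 times the negative log10 of the p-value), a fold enrichment over the local Input and an FDR in percent. A deposited table lists the class of every peak, the gene it was assigned to and the distance to that gene's start in bp. Per the study's methods, shared peaks were also inspected by eye, and peaks outside genes were assigned by the nearest start.

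Each shared site was joined to the BMAL1 peak of highest score that shared at least 1 bp with it, which left 210 BMAL1 peaks for 211 sites. Tags were divided by the library's tags after duplicate removal from the MACS headers. Sequence and transcripts were read from NCBIM37 and GENCODE M1 with pysam 0.24.0, shares and intervals were computed with scipy 1.17.1, and tag ratios, median intervals and the motif search were tested on simulated data. Promoters lay within 1000 bp of the assigned start. Motifs were searched within 100 bp of the summit, which was the BMAL1 summit for BMAL1 only peaks. With 1 library per antibody nothing was tested. Some items that the rule for named genes would name are not reported here. The sites, the 9 gene lists and the role groups were chosen with earlier results of these data known, and the lists with the assigned genes in view. Genes named are those of the lists with a shared site, the 15 sites of highest BMAL1 score outside the clock list and the 8 highest and 8 lowest ratios. Also named are the sites of smallest overlap, the CLK only peaks nearest to a BMAL1 peak and genes with more than 1 site. Others were chosen after their values were seen, to illustrate role groups, motifs or positions. Alternatives covered other scalings, distances, windows, summits and a score of at least 100, and those that left out listed genes, summed CLK peaks or used the BMAL1 score alone were added after the data were seen.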

Additional observations from a re-analysis of the deposited data

How the results depend on the processing

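The median log2 ratio of BMAL1 to CLK tags over all shared sites, 0.64, was 0.29 with tags per kb and 0.48 with fold enrichments, and between 0.61 and 0.73 under the other 4 settings run. Tags per kb divide by peak width and fold enrichments by the local Input. The share of shared sites at promoters, 35.1%, was 28.0% within 500 bp, 48.8% within 5 kb and 46.0% with the nearest GENCODE M1 start. The share with CACGTG, 59.2%, was 50.2% within 50 bp of the summit. The difference of median log2 ratios between sites with and without an e-box, -0.12, turned to 0.045 with fold enrichments, and the cause was not tested. The other 28 of 35 alternatives over the 14 results kept the direction of the difference, or moved the value by less than its interval. The promoter minus distal difference of 0.17 ran from 0.06 to 0.28 and never had a range that left out 0. No paired analysis was possible because each antibody had 1 library and nothing was tested. With a median of 39 CLK and 43 BMAL1 tags per site, the interval of a single ratio is wide, and it left out 1 at 97 sites on the high side and 5 on the low side.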
